A study of Homo sapiens with 27 samples.

Results

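The 36 genes described here are interferon-stimulated genes of the antiviral programme, chosen as a named list and found by symbol. All 36 were measured, with 1 probe set each, among 17687 genes on the arrays. They were followed in 3 established lines of human colorectal tumour cells (LIM1215, SW48, Caco2), each in 3 states with 3 arrays per state (27 arrays in 9 groups). Parental cells had met neither NK cells nor antibody. Resistant cells had outlived 20 cycles of exposure to NK-CD16 cells (natural killer cells bearing the Fc receptor CD16) plus cetuximab, an antibody against EGFR, at 1 µg/ml. Withdrawal cells descended from the resistant cells through 20 more cycles with neither NK cells nor antibody. The parental lines had been grown from a single clone each, so a line stands for 1 clone, and the labels do not say whether its replicates were separate cultures. P-values therefore measure only the spread between these samples, which may be technical.

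Type I interferons bind the receptor IFNAR1/IFNAR2, and the kinases JAK1 and TYK2 then activate ISGF3, a complex whose DNA-binding subunit is IRF9. ISGF3 binds the interferon-stimulated response element (ISRE) in promoters. The induced proteins block infection at different steps: OAS proteins and IFIH1 sense double-stranded RNA, IFIT proteins bind viral RNA, MX GTPases trap incoming particles, and ISG15 is attached to other proteins like ubiquitin. Interferon gamma, the type II interferon that activated NK cells release, acts mainly through a different element (GAS), and many of the same genes respond to both.

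Promoter sequences are shown for 6 members to set the element that ISGF3 recognises beside the values: those with the largest increase in Caco2 (IFIT1) and in SW48 (SAMD9), members that differed between the lines (ISG15, IFI6, BST2), and HERC5, which rose in no line. Each run is the 250 bases upstream of the annotated start, on the strand of the gene, from RefSeq on GRCh38.p14. Capitals mark matches to the ISRE core GAAANNGAAA on either strand.
IFIT1, chr10:89392373-89392622, + strand: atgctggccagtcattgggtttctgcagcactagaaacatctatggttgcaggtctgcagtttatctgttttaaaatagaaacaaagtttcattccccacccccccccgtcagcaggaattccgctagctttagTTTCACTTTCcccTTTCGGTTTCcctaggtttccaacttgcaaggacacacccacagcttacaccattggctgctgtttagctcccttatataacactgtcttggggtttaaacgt
ISG15, chr1:1013247-1013496, + strand: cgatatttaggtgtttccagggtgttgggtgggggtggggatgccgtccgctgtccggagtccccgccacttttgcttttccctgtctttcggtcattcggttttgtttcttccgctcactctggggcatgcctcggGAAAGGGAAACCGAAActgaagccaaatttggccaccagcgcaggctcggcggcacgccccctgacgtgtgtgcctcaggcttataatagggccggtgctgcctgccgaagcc
IFI6, chr1:27672193-27672442, - strand: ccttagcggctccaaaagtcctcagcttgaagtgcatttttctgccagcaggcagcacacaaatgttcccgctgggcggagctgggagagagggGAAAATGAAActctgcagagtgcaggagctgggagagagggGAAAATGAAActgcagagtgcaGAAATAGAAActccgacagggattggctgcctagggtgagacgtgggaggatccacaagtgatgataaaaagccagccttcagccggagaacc
SAMD9, chr7:93117980-93118229, - strand: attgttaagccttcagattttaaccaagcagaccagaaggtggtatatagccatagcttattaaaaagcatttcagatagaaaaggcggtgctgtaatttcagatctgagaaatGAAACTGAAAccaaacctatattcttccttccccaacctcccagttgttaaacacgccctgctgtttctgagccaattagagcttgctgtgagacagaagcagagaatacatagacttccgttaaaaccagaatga
BST2, chr19:17405631-17405880, - strand: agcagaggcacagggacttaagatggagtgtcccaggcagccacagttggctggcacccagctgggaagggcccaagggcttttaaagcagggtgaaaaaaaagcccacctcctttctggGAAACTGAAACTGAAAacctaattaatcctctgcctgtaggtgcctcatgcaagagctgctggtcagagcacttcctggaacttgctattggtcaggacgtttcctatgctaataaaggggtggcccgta
HERC5, chr4:88456869-88457118, + strand: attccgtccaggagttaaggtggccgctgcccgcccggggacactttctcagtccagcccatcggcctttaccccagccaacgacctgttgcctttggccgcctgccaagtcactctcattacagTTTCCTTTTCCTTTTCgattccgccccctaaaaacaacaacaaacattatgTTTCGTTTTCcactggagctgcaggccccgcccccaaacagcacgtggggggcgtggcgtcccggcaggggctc

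A promoter was found for 29 of the 36 members. Of these, 19 (65.5%) held at least 1 such match, against 3.71% of the 27305 genes with a promoter in the same table. A gene with several starts was counted once if any of them had a match. OAS1, UBE2L6, HERC6, IRF9, IFI35, CMPK2, XAF1, SAMD9L, DTX3L and SP100 held none, which says only that these letters are absent from that window. The GAS core TTCNNNGAA was found in 8 members (27.6%) and in 8.09% of all genes. In 4 members a GAS match shared bases with an ISRE match, BST2 among them, and matches to the ISRE core overlapped one another in 4 members, ISG15, BST2 and HERC5 among them. HERC5, IFI6 and IFIH1 held 3 matches each. IFI6 and IFIH1 were called between parental and resistant cells in at least 1 line, and HERC5, which was dim in LIM1215 and Caco2, in none. A match describes the letters and not occupancy by a factor.

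The deposited value of each probe set was read as a log2 intensity and used as deposited. A group was called near background where its mean was below the level that 95% of the 612 negative control probe sets stayed under (6.56 to 8.19 on the 27 arrays, averaged over the arrays of a group). Against such a group a fold is given as a lower bound, and where both groups were near background no fold is given. Above that level stood 21 of 36 members in LIM1215 parental cells (mean of replicates 1 and 2), 9 in SW48 parental cells and 6 in Caco2 parental cells. In resistant cells these counts were 31, 13 and 24, and after withdrawal 25, 9 and 4. Quartiles of the values differ between lines, so levels were compared only within a line. All measurements are of bulk RNA, in which fewer cells of a type and less RNA per cell cannot be told apart. Epithelial markers were present in every line, with 10 of 10 above background on every LIM1215 array, 8 on every Caco2 array and 6 on every SW48 array.

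One array stood apart and bears on every result for LIM1215. LIM1215 parental replicate 3 correlated with the other parental arrays of that line down to r = 0.987 over all genes, while replicates of the other 8 groups correlated at 0.995 or above after rounding. On this array 34 of the 36 members were over 1 log2 unit above the mean of parental replicates 1 and 2, with a median excess of 3.58 (0.60 to 7.21). IFITM1 (0.60) and TRIM22 (0.69) were the others. Only 5.05% of all genes were as far above. The largest excesses were those of IFI44L, at 3.36, 2.95 and 10.37 on parental replicates 1, 2 and 3, OAS2, at 7.26, 6.95 and 14.06, IFI27, at 7.62, 7.87 and 14.65, and IFIT1, at 6.17, 6.82 and 13.16. Replicate 2 differed from replicate 1 by a median of −0.01 over the members, from −0.83 (IRF9) to 1.15 (XAF1).

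**Figure D1:**
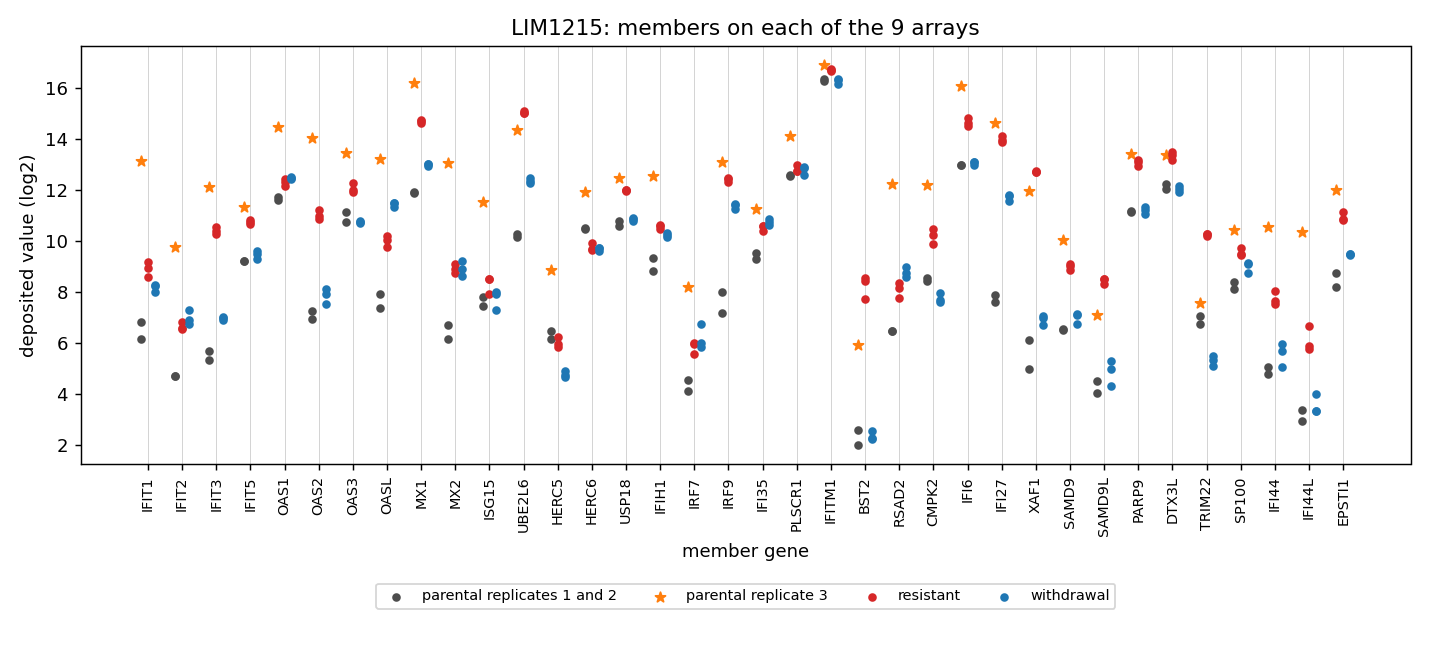
Deposited log2 value (vertical axis) of each member gene (horizontal axis) on the 9 LIM1215 arrays, with parental replicates 1 and 2 in grey, parental replicate 3 as an orange star, resistant arrays in red and withdrawal arrays in blue. The star lies above all 3 resistant arrays for 30 members and below all of them for 5 (UBE2L6, BST2, XAF1, SAMD9L and TRIM22).

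The pattern on this array was not that of resistant cells. For 30 members it exceeded all 3 resistant arrays, for DTX3L it lay among them, and for UBE2L6, BST2, XAF1, SAMD9L and TRIM22 it lay below all of them. TRIM22, a nuclear restriction factor, read 7.05, 6.73 and 7.58 on the parental arrays and 10.27, 10.27 and 10.21 on the resistant arrays. None of 27 NK cell markers was over 1 log2 unit above replicates 1 and 2 there, and 7 of 17 interferon gamma genes and 16 of 27 other antiviral interferon-stimulated genes were. Since one high array both raises the parental mean and widens the pooled error of each member in every line, results are given from a fit on all 27 arrays and from a fit on the 26 others. Both are limma fits with Benjamini-Hochberg adjustment over all 17687 genes, with a call at an adjusted p under 0.05, and differences are log2 with standard errors. The array was left out because these same genes were high on it. Leaving it out thus raises the LIM1215 differences from parental cells by construction, and mostly narrows the error of the members in every line. The p-values and counts on 26 arrays are therefore a description and no independent test.

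**Figure D2:**
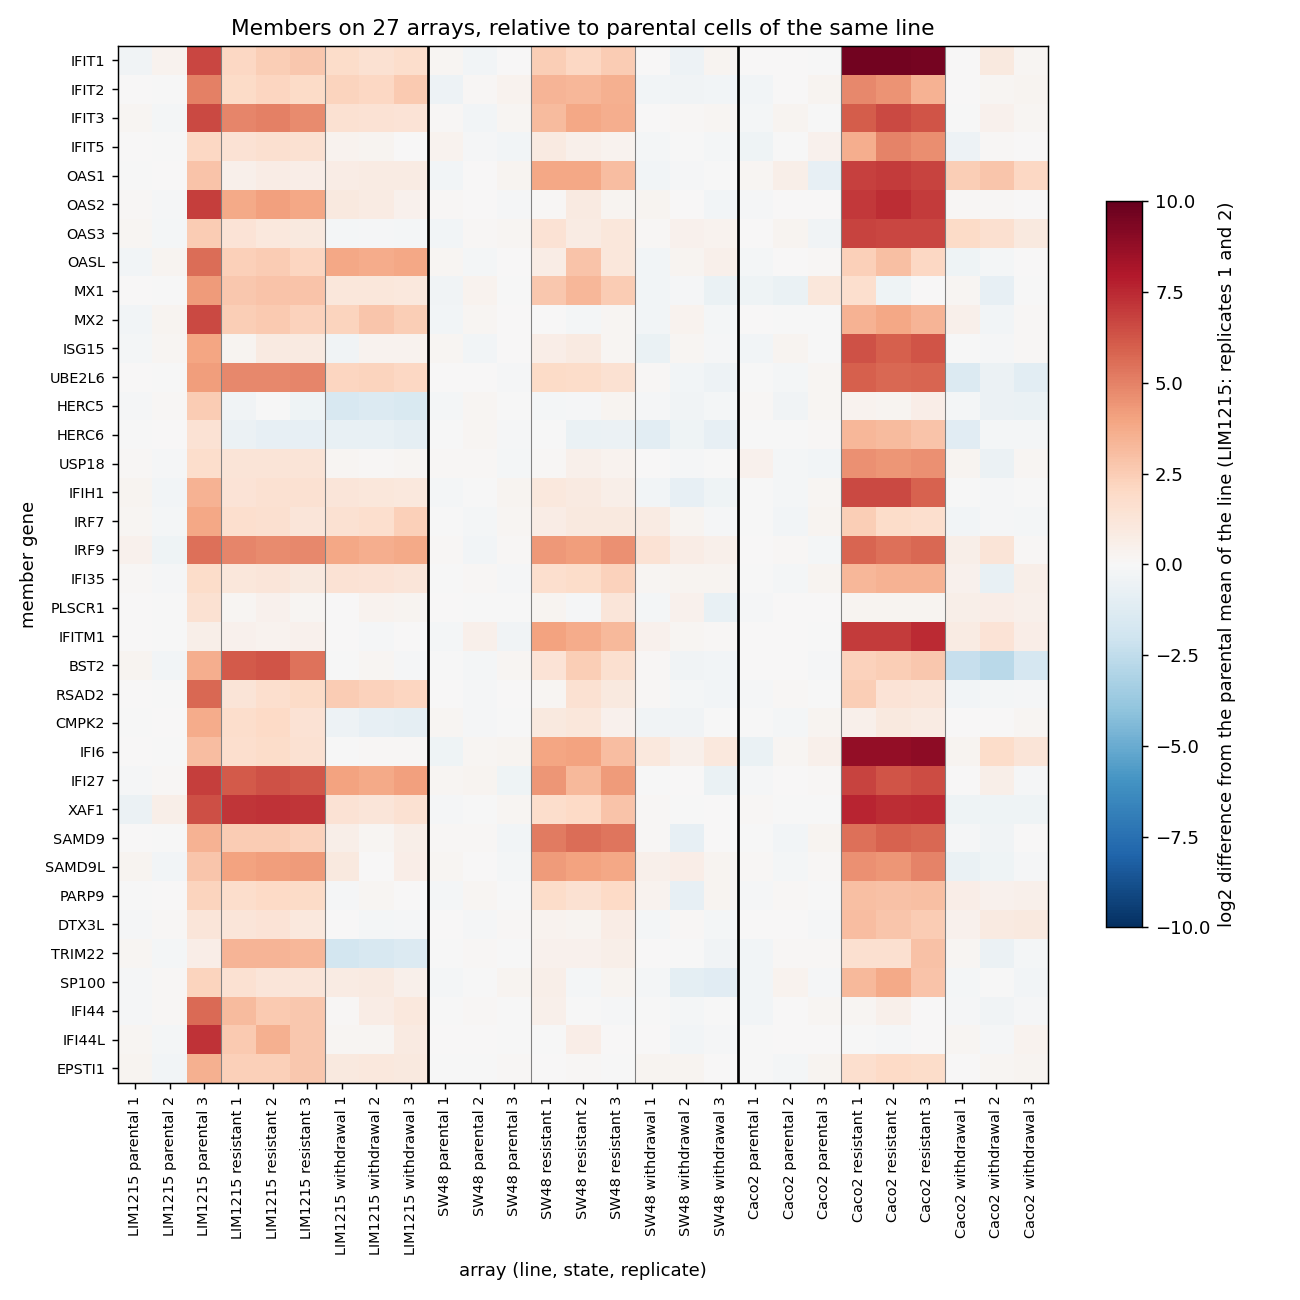
Difference of each member (rows) on each of the 27 arrays (columns) from the parental mean of its line, in log2 units by colour, where the LIM1215 reference is the mean of parental replicates 1 and 2. Resistant arrays are red in all 3 lines, most strongly in Caco2, and most members are near white after withdrawal in SW48 and Caco2. LIM1215 parental replicate 3 is red for 34 of 36 members.

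The first comparison, resistant against parental cells, asks how the antiviral genes stood in cells that had survived the NK cells and antibody. In Caco2, 29 of 36 members rose and 0 fell, against 12.9% and 14.5% of all genes, with a median difference of 3.92, and 31 rose without LIM1215 parental replicate 3 (14.3% of all genes). In SW48, 14 rose and 0 fell, against 10.9% and 11.8% of all genes, with a median of 1.02, and 23 rose in the 26-array fit (12.5%). In LIM1215, 8 rose and 1 fell on 27 arrays, against 5.42% and 5.39% of all genes, with a median of 0.62, and 30 rose and 1 fell on 26 arrays (7.35% and 7.37%), with a median of 1.94. The median difference over all genes was −0.0260 in Caco2, −0.00206 in SW48 and −0.0277 in LIM1215 (−0.0401 on 26 arrays). For the counts of 0 lower members in SW48 and Caco2 in limma's fits, 0 members had a lower value at an unadjusted p under 0.05 too.

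Many of these members were near background on both sides, and their log2 differences are differences of dim deposited values. In SW48 this held for 23 of 36 members, in Caco2 for 12 and in LIM1215 for 5. With each dim group mean raised to that background level, the median difference over the members was 1.57 in Caco2, 0 in SW48 and 1.24 in LIM1215 without parental replicate 3. All 3 resistant arrays lay above all parental arrays for 33 members in Caco2 (18.6% of all genes did so), 27 in SW48 (17.2%) and 5 in LIM1215 (10.9%), or 34 in LIM1215 against the other 2 parental arrays (20.1%). In the 26-array fit 20 members rose in all 3 lines (1.3% of all genes did so), 10 in 2 lines (4.95%), 4 in 1 (20.3%) and 2 in none (73.4%). On 27 arrays these counts were 5 (0.876%), 11 (4.08%), 14 (18.5%) and 6 (76.6%).

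**Figure D3:**
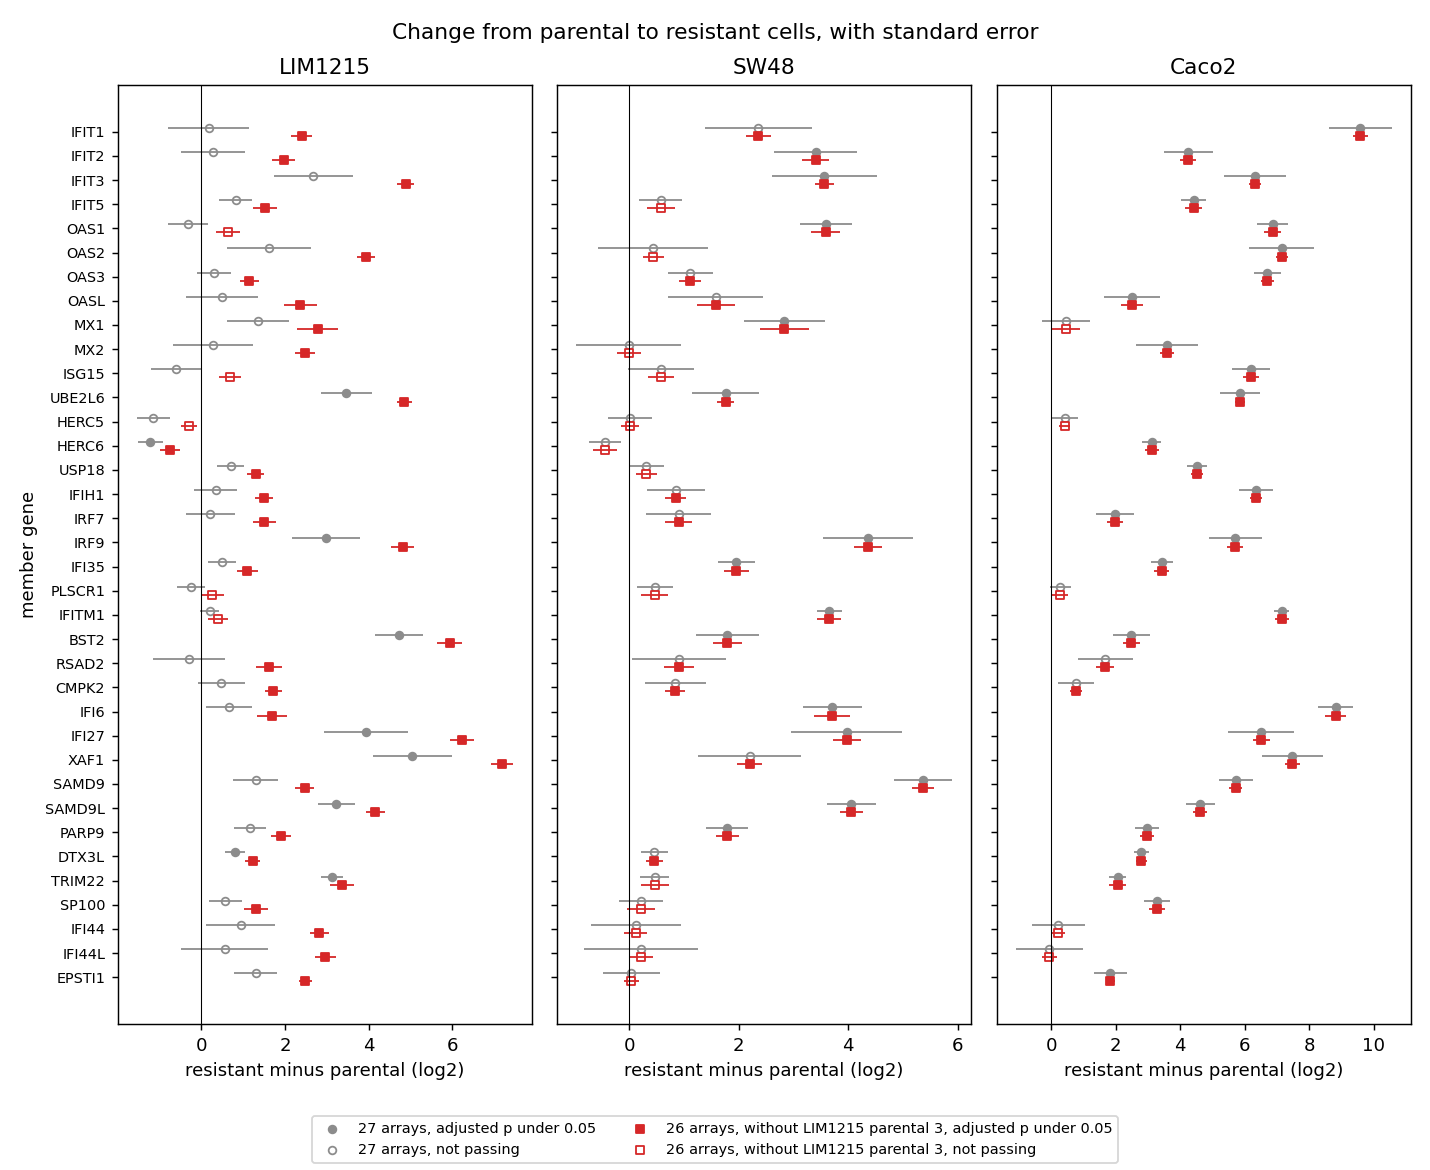
Resistant minus parental difference in log2 units (horizontal axis, with standard error bars) for each member (vertical axis) in LIM1215, SW48 and Caco2, from the fit on 27 arrays (grey circles) and the fit on 26 arrays (red squares). Filled symbols have an adjusted p under 0.05. In LIM1215 the 26-array points lie to the right of the 27-array points for all 36 members, while in SW48 and Caco2 the points coincide and the error bars differ.

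Markers of NK cells moved with the same comparison. Of 27 markers measured, 22 were called higher in resistant LIM1215 cells, 15 in SW48 (with 1 lower) and 22 in Caco2, and the number above background rose from 1 per parental array to 12 or 13 in LIM1215, from 0 to 8 or 9 in Caco2, and from 1 to between 1 and 4 in SW48. The log2 of their summed level was 9.71 to 9.97 in LIM1215 parental and 13.1 to 13.4 in resistant cells, 8.66 to 8.87 and 9.76 to 10.4 in SW48, and 8.45 to 8.56 and 12.2 to 12.6 in Caco2. GZMA, a granzyme of cytotoxic cells, read 3.75, 4.20 and 4.21 on LIM1215 parental arrays and 9.34, 9.70 and 9.13 on resistant ones. KLRF1 and FCER1G stayed near background in every group. NK cells express interferon-stimulated genes themselves, and the part of NK cell RNA in the rise of the members was not tested. On LIM1215 parental replicate 3, where the members were high, the summed marker level was 9.71, the lowest of the 3 parental arrays.

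**Figure D4:**
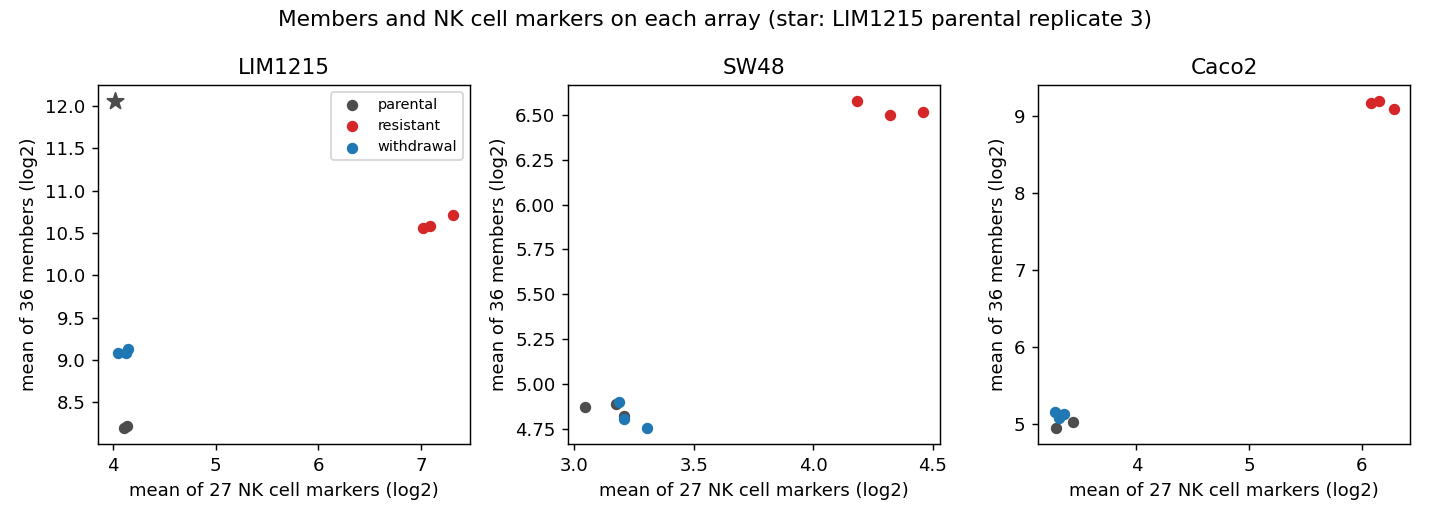
Mean log2 value of the 36 members (vertical axis) against that of 27 NK cell markers (horizontal axis) on each array, by line and state. Resistant arrays (red) are high on both axes, and the star, LIM1215 parental replicate 3, stands at 12.06 on the vertical axis and 4.02 on the horizontal one, above the resistant arrays of its line (10.56 to 10.71) and at the marker level of the other parental arrays (4.10 and 4.13).

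The IFIT proteins, which bind viral RNA with abnormal ends and slow its translation, rose as a group of 4 in Caco2. IFIT1 had the largest difference of any member: its values were 3.07, 3.04 and 2.99 on Caco2 parental arrays and 12.64, 12.66 and 12.57 on resistant arrays, a change of 9.59 ± 0.97 (at least 29.2-fold, limma adjusted p = 4.85e-08). The groups were far apart, and every other IFIT gene also separated completely in Caco2, with IFIT3 at 4.32, 4.79 and 4.50 and 10.62, 11.15 and 10.81. In LIM1215 these 4 genes passed on 26 arrays and not on 27. There IFIT3 stood at 5.69, 5.35 and 12.13 in parental and 10.40, 10.54 and 10.26 in resistant cells, a difference of 2.68 ± 0.95 (adjusted p = 0.0778) with that array and 4.88 ± 0.20 (at least 7.66-fold, adjusted p = 6.51e-14) without it. In SW48, IFIT2 and IFIT3 rose by 3.41 and 3.56 from levels near background to levels still near it, IFIT1 passed on 26 arrays alone, and IFIT5 differed by 0.58 ± 0.39 and passed in neither fit.

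OAS1, OAS2 and OAS3 sense double-stranded RNA and make the small messenger that switches on RNase L, which cuts RNA, and OASL is a relative without that activity. OAS1, OAS2, OAS3 and OASL all rose in Caco2, OAS2 from 2.38, 2.53 and 2.51 to 9.55, 9.88 and 9.44 (7.15 ± 1.00) and OAS3 from 6.13, 6.33 and 5.75 to 12.84, 12.79 and 12.72 (at least 32.6-fold). No Caco2 parental array reached a resistant one for any of the 4. In SW48, OAS1 read 2.46, 2.84 and 3.00 in parental and 6.63, 6.61 and 5.83 in resistant cells (3.59 ± 0.48, adjusted p = 4.51e-06), both near background. OAS2 in SW48 differed by 0.44 ± 1.00 and passed in neither fit. In LIM1215 without parental replicate 3, OAS2, OAS3 and OASL rose by 3.93, 1.15 and 2.37, and OAS1, already bright at 11.60, 11.73 and 14.50 on the parental arrays, differed by 0.63 ± 0.29 and did not pass.

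The calls for the MX GTPases differed by line. MX1, which traps incoming viral particles in the cytoplasm, read 11.95, 11.89 and 16.20 in LIM1215 parental cells and 14.62, 14.73 and 14.77 in resistant cells, and rose by 2.79 ± 0.49 (6.91-fold) without parental replicate 3. It rose in SW48 from 6.11, 6.84 and 6.43 to 9.17, 9.75 and 8.97 (2.84 ± 0.74, at least 5.94-fold). In Caco2 it showed 3.00, 2.77 and 4.62 against 5.18, 3.04 and 3.50, where the arrays overlapped and both groups were near background. MX2, its paralog at the nuclear pore, rose in Caco2 from 2.92, 2.85 and 2.81 to 6.32, 6.73 and 6.30, within background. In SW48 it read 2.30, 2.79 and 2.64 against 2.59, 2.35 and 2.78, also near background. A lack of response of MX1 in Caco2 or of MX2 in SW48 is thus not shown. For both genes the difference between the changes of SW48 and Caco2 passed on 26 arrays and not on 27. In LIM1215 MX2 rose by 2.48 ± 0.24 on 26 arrays and differed by 0.28 ± 0.96 on 27.

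The ISG15 pathway tags proteins with a ubiquitin-like modifier. ISG15 itself rose in Caco2, where it went from 5.46, 5.97 and 5.70 to 12.05, 11.67 and 12.00 (6.20 ± 0.60, at least 17.8-fold, adjusted p = 2.5e-08), and passed in neither fit in the other 2 lines. UBE2L6, the conjugating enzyme, was the member of this group that rose in all 3 lines in both fits. It read 10.27, 10.16 and 14.37 in parental and 15.03, 15.04 and 15.12 in resistant LIM1215 cells (28.8-fold on 26 arrays and 11-fold on 27), and its 3 resistant arrays exceeded even parental replicate 3. It rose 3.4-fold in SW48 and 58-fold in Caco2.

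The calls for the ligases and the protease of the pathway differed from those for UBE2L6. HERC5, the main ISG15 ligase in human cells, passed in no line in either fit. It read 7.23, 6.73 and 7.31 against 7.42, 7.40 and 7.73 in Caco2 and 6.14, 6.45 and 8.86 against 5.96, 6.23 and 5.84 in LIM1215. The group means were near background in both of these lines, so a lack of response is not shown in them. That limit does not cover SW48, where HERC5 was not called either. HERC6, its close relative, rose in Caco2 from 7.22, 7.27 and 7.40 to 10.63, 10.46 and 10.14 (3.11 ± 0.29) and fell in LIM1215 from 10.48, 10.51 and 11.93 to 9.93, 9.68 and 9.64 (−1.22 ± 0.29 on 27 arrays and −0.74 ± 0.24 on 26). It was the only member called lower in resistant cells in any line. USP18, which removes ISG15 and damps the receptor, rose in Caco2 (4.53 ± 0.32, at least 3.43-fold), rose 2.46-fold in LIM1215 on 26 arrays, and passed in neither fit in SW48 (0.31 ± 0.32).

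Among the members that sense or relay the signal, IRF9, the DNA-binding subunit of ISGF3, rose in all 3 lines in both fits. Its values were 5.46, 5.12 and 5.51 in SW48 parental and 9.66, 9.58 and 9.94 in resistant cells (4.36 ± 0.82, at least 8.03-fold, adjusted p = 0.000293). In Caco2 they were 6.58, 6.62 and 6.35 and 12.35, 12.05 and 12.29 (at least 22.2-fold), and in LIM1215 8.01, 7.18 and 13.09 and 12.48, 12.32 and 12.43, where parental replicate 3 exceeded the resistant ones. IFIH1, the RNA sensor MDA5, rose in Caco2 from 3.01, 2.89 and 3.27 to 9.65, 9.66 and 8.93 and, on 26 arrays, by 1.49 in LIM1215 and 0.85 in SW48. IRF7, the factor that amplifies interferon alpha genes, rose by 1.99 in Caco2, and on 26 arrays it was called higher in all 3 lines. It stayed near background in every group mean. IFI35, which binds the factor NMI, rose in SW48 (1.96 ± 0.34) and in Caco2 (3.43 ± 0.34) in both fits, and in LIM1215 on 26 arrays alone. PLSCR1, a membrane phospholipid scramblase, passed in no line in either fit, at 11.01, 11.21 and 11.20 against 11.45, 11.40 and 11.40 in Caco2.

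The members that act at membranes, IFITM1 and BST2, were both called higher in SW48 and Caco2, and only BST2 was called in LIM1215. IFITM1, which blocks the fusion of entering viruses, read 16.35, 16.28 and 16.92 in parental and 16.73, 16.67 and 16.74 in resistant LIM1215 cells, and its difference of 0.40 ± 0.24 on 26 arrays did not pass. In SW48 it rose from 7.14, 7.86 and 6.94 to 11.35, 11.01 and 10.54 (12.6-fold), and in Caco2 from 5.88, 5.89 and 5.86 to 12.88, 12.85 and 13.35 (at least 38.6-fold, adjusted p = 1.96e-16). BST2, or tetherin, which holds budding virions on the cell, was called in all 3 lines. In LIM1215 it went from 2.58, 2.01 and 5.93 to 8.43, 8.56 and 7.72, in Caco2 from 8.73, 8.71 and 8.58 to 10.97, 11.16 and 11.37 (5.62-fold), and in SW48 from 2.20, 2.08 and 2.47 to 3.63, 4.68 and 3.82, near background in both SW48 groups. The resistant arrays lay above all parental arrays in every line.

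RSAD2 (viperin) and CMPK2 are neighbouring genes whose products act together to make a chain-terminating nucleotide. Neither was called in any line on 27 arrays, and both were called in all 3 lines on 26. CMPK2 read 8.42, 8.55 and 12.21 in LIM1215 parental and 10.23, 10.48 and 9.90 in resistant cells (1.72 ± 0.20 on 26 arrays, 3.29-fold). RSAD2 was the one member called in LIM1215 on 26 arrays whose sign turned on 27, with −0.30 ± 0.86 on 27 arrays and 1.62 ± 0.31 on 26. In SW48 and Caco2 the levels of both genes stayed near background.

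IFI6, IFI27 and XAF1, proteins linked to mitochondria, the endoplasmic reticulum or apoptosis, held 2 of the 6 largest differences in each line, though not the same 2. XAF1, an antagonist of the apoptosis inhibitor XIAP, rose in LIM1215 from 4.97, 6.12 and 11.98 to 12.72, 12.77 and 12.71, above parental replicate 3 too, by 5.04 ± 0.94 on 27 arrays (32.9-fold) and 7.19 ± 0.26 on 26 (at least 38.5-fold). In Caco2 it rose from 3.09, 2.93 and 2.94 to 10.57, 10.40 and 10.44 (at least 6.57-fold). IFI6, which protects cells from flavivirus replication, rose in Caco2 from 4.28, 5.14 and 5.52 to 13.74, 13.75 and 13.92 (8.83 ± 0.54, at least 66.2-fold), the largest bound of any member in that line, and in SW48 from 3.50, 4.12 and 4.21 to 7.92, 7.98 and 7.06 (at least 1.9-fold). IFI27 stood at 7.62, 7.87 and 14.65 in LIM1215 parental and 13.87, 14.11 and 13.95 in resistant cells, 15.3-fold higher on 27 arrays and 75.3-fold on 26. It rose by 3.98 in SW48 near background and by 6.51 in Caco2.

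SAMD9 and SAMD9L, neighbouring genes for poxvirus restriction factors that repress translation, were among the 3 largest differences in SW48. SAMD9 went from 2.93, 2.90 and 2.51 on SW48 parental arrays to 7.99, 8.33 and 8.11 on resistant arrays, a difference of 5.36 ± 0.53 (at least 2.68-fold over background, adjusted p = 7.05e-08). In Caco2 it went from 2.53, 2.25 and 2.82 to 8.06, 8.42 and 8.29. SAMD9L rose in all 3 lines in both fits, in LIM1215 from 4.53, 4.05 and 7.09 to 8.33, 8.51 and 8.51, where the resistant arrays lay above all 3 parental ones.

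PARP9 and DTX3L form a complex of an ADP-ribosyltransferase-like protein and a ubiquitin ligase that enhances interferon responses, and they share a divergent promoter. PARP9 read 8.98, 9.24 and 9.05 in Caco2 parental and 12.12, 11.99 and 12.06 in resistant cells (7.82-fold), and 7.19, 7.57 and 7.36 and 9.22, 8.90 and 9.37 in SW48 (3.46-fold). DTX3L, above background in every group, rose 6.95-fold in Caco2 and 1.76-fold in LIM1215 on 27 arrays, and 1.38-fold in SW48 on 26 arrays alone. On 26 arrays PARP9 rose 3.76-fold in LIM1215.

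Of the remaining members, TRIM22 rose in LIM1215 by 3.13 ± 0.27 (at least 7.42-fold, adjusted p = 1.03e-08) from the values given above. In Caco2 it rose by 2.06 within background. SP100, a scaffold of nuclear PML bodies, rose in Caco2 by 3.28 within background and in LIM1215 by 1.31 on 26 arrays. IFI44 and IFI44L, neighbouring genes of poorly known mechanism, rose in LIM1215 on 26 arrays (2.82 and 2.96), with both group means within background. In the other 2 lines their parental and resistant arrays overlapped, also near background. EPSTI1 was near background in every SW48 group (2.23, 2.21 and 2.41 and 2.35, 2.38 and 2.25), and rose in Caco2 from 10.58, 10.39 and 10.86 to 12.31, 12.60 and 12.43 (3.57-fold) and in LIM1215 by 2.48 ± 0.16 on 26 arrays.

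The second question was whether the genes returned to parental levels after 20 cycles without NK cells and antibody. In Caco2, 29 of 36 members fell between resistant and withdrawal cells (12.5% of all genes fell), and 32 on 26 arrays (14.2%). In SW48, 14 fell (11.1%), and 25 on 26 arrays (12.5%). In LIM1215, 17 fell (14.4%), and 23 on 26 arrays (16.1%). Higher than in resistant cells were 0 members in limma's fit on 27 arrays (0 at an unadjusted p under 0.05), where 13.6% of all genes were higher in LIM1215, 11.1% in SW48 and 12.1% in Caco2. On 26 arrays 1 member was higher, OASL in LIM1215 (15.1% of all genes). NK cell markers went the same way, with 23 of 27 called lower in LIM1215, 13 in SW48 and 21 in Caco2, and in withdrawal cells the number above background per array was 1, 1 and 0. In SW48 the summed marker level stayed at 9.73 to 9.88 after withdrawal, and PTPRC, which SW48 parental cells also carried, was the 1 marker called higher there than in parental cells (1.62 ± 0.18).

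Against parental cells, few differences were called after withdrawal in SW48 and Caco2. However, 27 of 36 members in SW48 and 30 in Caco2 were near background in both states, where a return to the parental level cannot be measured. All withdrawal arrays lay above all parental arrays for 7 members in Caco2 (11% of all genes) and 4 in SW48 (10.7%). They lay below them for 4 in Caco2 (12.4%) and 2 in SW48 (11.4%). In SW48, 0 members were called in limma's fit on 27 arrays, where 1.78% of all genes were higher and 2.3% lower and 1 member had an unadjusted p under 0.05. On 26 arrays IRF9 was higher and HERC6 lower (2.74% and 3.48% of all genes), both near background. In Caco2, 3 members were higher and 1 lower (2.73% and 2.54% of all genes), and 5 and 2 on 26 arrays (3.51% and 3.38%). The members higher in Caco2 were OAS1, OAS3 and IFITM1, with IFI6 and DTX3L added on 26 arrays. OAS1 read 5.20, 5.55 and 4.18 in parental and 7.43, 7.75 and 7.02 in withdrawal cells (2.43 ± 0.48, adjusted p = 0.00252), against 11.80, 11.99 and 11.73 in resistant cells, and both outer groups were near background. BST2 was the lower one, at 8.73, 8.71 and 8.58 in parental and 6.37, 5.95 and 7.01 in withdrawal cells (at least 1.61-fold lower), below its starting level after having risen. On 27 arrays that call (adjusted p = 0.0224) was lost without any 1 of the Caco2 parental arrays, without withdrawal replicate 1 or 2 (adjusted p up to 0.11), and with a replicate block (0.0503). On 26 arrays the adjusted p was 9.49e-06, and UBE2L6 was also lower (at least 1.55-fold).

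In LIM1215 the result turned on parental replicate 3. On 27 arrays 0 members were higher after withdrawal than in parental cells in limma's fit (9.89% of all genes were, and 2 members had an unadjusted p under 0.05), and CMPK2, HERC5, HERC6 and TRIM22 were lower (11.2% of all genes). On 26 arrays 17 were higher and the same 4 lower (13.3% and 15.1% of all genes), with a median difference of 0.70. With each dim group mean raised to the background level that median was 0.095, and 11 members were near background in both groups. IRF9 read 11.46, 11.26 and 11.40 after withdrawal, between parental replicates 1 and 2 and the resistant arrays, a difference from parental cells of 3.77 ± 0.28 (13.7-fold). IFI27, at 11.77, 11.57 and 11.82, was still 15.7-fold above the 2 parental arrays, and UBE2L6, at 12.36, 12.48 and 12.29, 4.47-fold. The other members called higher were EPSTI1, IFI35, IFI44, IFIH1, IFIT1, IFIT2, IFIT3, IRF7, MX2, OAS1, OAS2, OASL, RSAD2 and XAF1. Of these, IFI44, IFIT2, IFIT3, IRF7 and XAF1 were near background in both groups, as were HERC5 and TRIM22 among the lower ones.

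**Figure D5:**
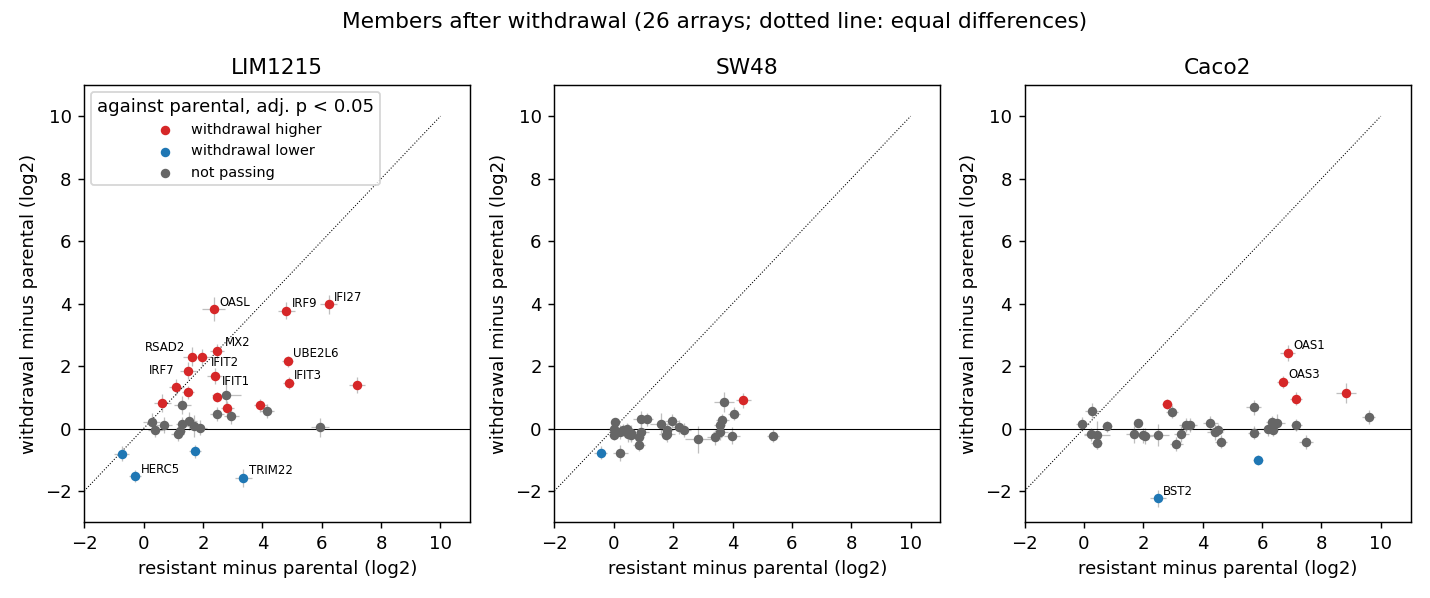
Withdrawal minus parental difference (vertical axis, log2) against resistant minus parental difference (horizontal axis, log2) for the 36 members in each line, from the fit on 26 arrays, with standard error bars. Red and blue points were called higher and lower after withdrawal, and the dotted line marks equal differences. SW48 and Caco2 points lie near 0 on the vertical axis with few exceptions, and 17 LIM1215 points are called higher. Both axes use the same parental arrays.

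In LIM1215 all withdrawal arrays lay above all resistant arrays for 3 members (23% of all genes), OASL, RSAD2 and IFI35, below them for 26 (23% of all genes), and overlapped them for 7. OASL, an OAS relative without enzyme activity that enhances RNA sensing, rose further, from 10.03, 10.21 and 9.77 in resistant to 11.51, 11.35 and 11.51 in withdrawal cells (1.45 ± 0.35, adjusted p = 0.00249 on 26 arrays and 0.237 on 27). MX2 read 8.92, 9.10 and 8.76 in resistant and 8.64, 9.23 and 8.90 in withdrawal cells, where the arrays overlapped. RSAD2 differed by 0.68 ± 0.27 and did not pass. Other members fell to or below the parental level: BST2 went back to 2.26, 2.53 and 2.22, and TRIM22 fell to 5.09, 5.32 and 5.50, under all 3 parental arrays (−1.82 ± 0.27 on 27 arrays, adjusted p = 5.05e-05). CMPK2, the neighbour of RSAD2, fell to 7.96, 7.68 and 7.62, 1.66-fold below parental replicates 1 and 2, while RSAD2 stayed at least 2.48-fold above them. On the LIM1215 withdrawal arrays 0 of 27 NK cell markers were called higher than in parental cells and 1 (FCER1G) lower, and their summed level was 9.91 to 10.0.

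The lines were then compared by testing the difference between their changes from parental to resistant cells. The change was smaller in SW48 than in Caco2 for 17 members and larger for 0 in limma's fit (13% and 12.9% of all genes, with 1 member larger at an unadjusted p under 0.05), and on 26 arrays for 24 and 1 (14.8% and 14.5%). It was smaller in LIM1215 than in Caco2 for 17 and larger for 1 (10.8% and 10.4%), and on 26 arrays for 21 and 7 (12.2% and 11.8%). Between LIM1215 and SW48, LIM1215 had the smaller change for 6 and the larger for 2 (8.67% and 9.6%), and on 26 arrays for 5 and 15 (10.5% and 11.1%). The direction of that last comparison turned with LIM1215 parental replicate 3, so the data give no settled order of these 2 lines over the members.

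IFIT1 had the largest of these differences. It changed less in SW48 than in Caco2, with a difference of −7.23 ± 1.37 (adjusted p = 0.00032), and less in LIM1215 than in Caco2, with −9.41 ± 1.37 on 27 arrays and −7.19 ± 0.34 on 26. IFITM1 changed less in LIM1215 than in SW48 (−3.46 ± 0.32) and less in SW48 than in Caco2 (−3.49 ± 0.32). On the LIM1215 parental arrays IFITM1 already read 16.35, 16.28 and 16.92, and whether the array could show a further rise was not tested. TRIM22 changed more in LIM1215 than in SW48 (2.66 ± 0.38). Against Caco2 the difference was 1.29 ± 0.38 on 26 arrays (adjusted p = 0.0161) and 1.06 ± 0.38 on 27 (adjusted p = 0.0495), and the call on 27 arrays was lost under 5 other settings, at adjusted p = 0.0506 to 0.0708. It was also lost without any 1 of 9 of the 12 arrays compared, at adjusted p up to 0.146, and held without LIM1215 parental replicate 3, Caco2 parental replicate 1 or Caco2 resistant replicate 3. BST2 changed more in LIM1215 than in SW48 by 2.94 ± 0.82, and MX1 changed more in SW48 than in Caco2 by 2.39 ± 0.62 on 26 arrays alone. BST2 in SW48 and MX1 in Caco2 were near background in both states. HERC6, which moved in opposite directions, differed between LIM1215 and Caco2 by −4.33 ± 0.42 log2 units (adjusted p = 4.79e-08).

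The wider interferon pathway was read from lists set beside the members. None of 10 interferon ligand genes, among them IFNB1, IFNA1, IFNA2, IFNG, IFNL1 and IFNL2, was above background on any array. IFNG was called higher in resistant LIM1215 cells (1.43 ± 0.28) and IFNA1 lower in SW48 (−0.66 ± 0.20), both within background. In Caco2 0 ligands were called in limma's fit (0 at an unadjusted p under 0.05). Of 9 receptor and kinase genes, 6 rose and 0 fell in Caco2, with IFNLR1, the interferon lambda receptor chain, at 1.32 ± 0.24 and IFNAR2 at 0.54 ± 0.14, while 1 rose and 2 fell in each of the other lines on 27 arrays. For this list and the next ones, 12.9% of all genes rose and 14.5% fell in Caco2 on 27 arrays. These shares were 10.9% and 11.8% in SW48 and 5.42% and 5.39% in LIM1215. On 26 arrays they were 14.3% and 16.3% in Caco2, 12.5% and 13.2% in SW48 and 7.35% and 7.37% in LIM1215. JAK1 fell in SW48 (−0.94 ± 0.10) and rose in Caco2 (0.72 ± 0.10).

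Of 5 measured interferon transcription factors outside the member list, IRF1 rose in all 3 lines in both fits. IRF1, a factor that interferon gamma induces directly, read 9.59, 9.61 and 10.95 in LIM1215 parental and 13.17, 13.24 and 13.11 in resistant cells, so on parental replicate 3 it was 1.35 above replicates 1 and 2, against a median of 3.58 over the members. It rose by 1.73 ± 0.25 in SW48 and 3.36 ± 0.25 in Caco2. Among 11 sensors and adaptors, 7 rose in Caco2, 4 in SW48 and 1 in LIM1215, and 5 in both SW48 and LIM1215 on 26 arrays, with none lower. RIGI, the sensor of 5′-triphosphate RNA, read 8.77, 8.99 and 12.64 in LIM1215 parental, 10.90, 10.76 and 10.77 in resistant and 10.50, 10.48 and 10.58 in withdrawal cells, and IFIH1 read 9.33, 8.85 and 12.54, then 10.49, 10.61 and 10.64, then 10.31, 10.25 and 10.16 in the same order of states.

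Of 6 brakes on the pathway, 0 were called in LIM1215 in limma's fits (0 at an unadjusted p under 0.05 on 27 arrays and 1 on 26), 1 rose in SW48 (PIAS1), and in Caco2 SOCS1, SOCS3 and PIAS1 rose and PTPN2 fell. Only 4 of the 6 brakes were above background on each LIM1215 and Caco2 array, in every state, and 3 on each SW48 array. Of 27 other antiviral interferon-stimulated genes, 23 rose and 1 fell in Caco2, 16 rose and 2 fell in SW48, and 4 rose in LIM1215, or 18 on 26 arrays. DDX60, a helicase of that list, read 8.31, 7.82 and 13.01 in LIM1215 parental, 11.09, 11.41 and 11.11 in resistant and 9.90, 9.57 and 9.47 in withdrawal cells. Of 17 interferon gamma genes, 13 rose in Caco2, 11 in SW48 and 12 in LIM1215 on 27 arrays. Per array, 1 or 2 of them were above background in SW48 parental and 5 in resistant cells, and 3 and 8 or 9 in Caco2. In LIM1215, 5 to 7 were above it in parental and 10 in resistant cells, so in each line some calls were of dim values. The median difference of the interferon gamma genes in LIM1215 was 2.20 on 27 arrays and 2.45 on 26, and that of the 36 members was 0.62 and 1.94. After withdrawal, the interferon gamma genes in LIM1215 had a median difference from parental cells of 0.21 on 27 arrays. There 1 was higher and 1 lower (9.89% and 11.2% of all genes). On 26 arrays that median difference was 0.51, with 6 higher and 1 lower (13.3% and 15.1%). In SW48 it was −0.02 and in Caco2 0.04 in both fits.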

How the data were processed

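Total RNA (250 ng per sample, per the labels' protocols) was labelled as sense-strand cDNA and hybridised to whole-transcript arrays. The deposited values were read as log2 intensities from their range. The labels name neither the log base nor the authors' software and normalization, which are thus not given in the sources used here. Quartiles were alike within a line and differed between lines, so changes were compared within lines or as differences of changes. Of 21448 transcript probe sets, 17709 carried 1 gene symbol in the platform annotation and 3739 none. They gave 17687 genes, the brightest probe set standing for each of 20 genes with several. All 36 members had 1 probe set.

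limma 3.58.1 in R 4.3.3 fitted a mean per group on 27 arrays with eBayes (18 residual and 4.12 prior degrees of freedom), and on 26 arrays without LIM1215 parental replicate 3 (17 and 3.83). P-values were two-sided and adjusted by the Benjamini-Hochberg method over all genes within each of 9 contrasts within lines and 3 between lines. Scripts were tested on simulated data. The number of arrays limits the precision. Every member is named, and values on every array are given for members among the 6 largest called differences from parental cells in a line and for 1 or 2 per role. The members and gene lists were chosen with earlier results of these data known. Alternatives covered normalization, the arrays in the fit, a replicate block, dim genes, probe sets, the spread, array weights and leaving out each array. Promoters came from RefSeq (GRCh38.p14). Figures were drawn with matplotlib 3.10.9 in Python 3.11.15.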

Additional observations from a re-analysis of the deposited data

Results flagged for a closer look

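The change from parental to resistant cells differed between lines by the test of the difference itself (limma, 27 arrays, adjusted p under 0.05) for 8 of 36 members between LIM1215 and SW48, 18 between LIM1215 and Caco2 and 17 between SW48 and Caco2. Of all genes, the change was larger in the first-named line for 9.6%, 10.4% and 12.9%, and smaller for 8.67%, 10.8% and 13%, in the same order. HERC6 was called in opposite directions in LIM1215 and Caco2, and its changes differed by −4.33 ± 0.42 log2 units (LIM1215 minus Caco2, adjusted p = 4.79e-08).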

How the results depend on the processing

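On 27 arrays the members called (higher or lower) numbered 9, 4 and 17 in LIM1215 (resistant against parental, withdrawal against parental, withdrawal against resistant), 14, 0 and 14 in SW48 and 29, 4 and 29 in Caco2, and the change differed for 8 (LIM1215 and SW48), 18 (LIM1215 and Caco2) and 17 (SW48 and Caco2). Without LIM1215 parental replicate 3 (26 arrays) the counts were 31 and 21 for resistant and withdrawal against parental LIM1215 cells, 23, 2 and 25 for the 3 SW48 comparisons, 7 for withdrawal against parental Caco2 cells, and 20 and 28 for LIM1215 against SW48 and Caco2. Fitted on the 9 arrays of a line alone, they were 3 (resistant against parental) and 6 (withdrawal against resistant) in LIM1215, 23 and 25 in SW48, and 7 for withdrawal against parental in Caco2. With array weights they were 31 and 16 for resistant and withdrawal against parental LIM1215 cells, and 16 for LIM1215 against SW48. For the ranges that follow, only arrays of the groups compared were left out (6 within a line and 12 between lines). Leaving out 1 array at a time gave 7 to 31, 4 to 21 and 12 to 15 in LIM1215, 12 to 13, 0 to 0 and 12 to 15 in SW48, 27 to 29, 1 to 4 and 27 to 29 in Caco2, and 6 to 20, 17 to 28 and 16 to 18 between lines, where LIM1215 parental replicate 3 gave each of the highs of 31, 21, 20 and 28. Withdrawal against parental Caco2 cells gave 2 without each Caco2 parental array in turn and 1 without withdrawal replicate 2, and withdrawal against parental LIM1215 cells gave 7 without parental replicate 1 or 2. The other settings (quantile normalization, centring, dim genes left out, all transcript probe sets, a robust and trended spread) kept each count within 1.5 times, but quantile normalization, centring, all transcript probe sets and the robust spread, like the replicate block, lost TRIM22, the 1 member whose change was greater in LIM1215 than in Caco2. Replicate numbers did not pair the samples: same-numbered arrays of a line correlated at −0.0407 to 0.0749 in their deviations from group means, and a replicate block gave 8, 4 and 18 in LIM1215, 14, 0 and 14 in SW48, 29, 3 and 29 in Caco2, and 8, 17 and 17 between lines. Of 4815 gene values compared, 19 turned in sign across a call. Among them RSAD2 in resistant against parental LIM1215 cells was 1.62 on 26 arrays and 1.29 with array weights, and −1.26 to 1.62 over the arrays left out. In withdrawal against parental LIM1215 cells the values on 26 arrays, each the highest over the arrays left out, were 1.00 for EPSTI1 (lowest −0.90), 0.65 for IFI44 (−2.24), 1.68 for IFIT1 (−1.81), 1.46 for IFIT3 (−1.93), 0.81 for OAS1 (−0.64), 0.74 for OAS2 (−2.81) and 1.38 for XAF1 (−2.13), and with array weights 0.86 for EPSTI1 and 1.29 for IFIT1. The cause of these shifts was not tested beyond the array left out. Signal under the negative controls limits SW48 most, where 23 of 36 members were near background in both parental and resistant cells.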
